A study of Mus musculus with 6 samples.

Results

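Cdkn2a and Ccnd3, genes that act on opposite sides of the decision to leave G1, were followed in 6 murine brainstem gliomas, of which 3 carried the histone mutation H3.3K27M and 3 did not. The members were chosen by gene name, and both are among the 223 genes of the deposited table. Their RNA was measured as normalized read counts. The mice were C57BL/6, carried Nestin tv-a (a transgene that puts the receptor of an avian retrovirus on nestin-expressing cells) and had floxed p53 alleles. All tumours combined PDGF-B, a growth factor and glioma driver, with loss of p53, so the labelled genotypes differ by H3.3K27M alone; the titles of the others read H3.3WT, and whether that marks an introduced wild-type histone is not stated. H3.3K27M replaces lysine 27 of the histone variant H3.3 with methionine and inhibits the Polycomb methyltransferase PRC2. Titles of H3.3K27M tumours open with 12 and those of the others with 11, so whatever these numbers mark cannot be told apart from the mutation. The number 623 is shared by the titles of H3.3K27M replicates 1 and 2 and is not explained. Trp53 and Pdgfb are not listed, so the genotypes could not be checked at these genes. Age is not given in the labels.

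Cdkn2a encodes inhibitors of the cell cycle. Its product p16 binds the kinases CDK4 and CDK6 and keeps them from D-type cyclins, while p19Arf, made from the same locus, binds Mdm2 and so stabilises p53. Ccnd3 encodes cyclin D3, a D-type cyclin that activates CDK4 and CDK6, which phosphorylate RB and release E2F factors for entry into S phase. In mouse cells the Cdkn2a locus is a classic target of Polycomb silencing, and Arf transcription rises when p53 is lost. Published work on this tumour model is known for a report that H3.3K27M represses p16, which is given here from general knowledge and was not read for these results. The comparison asks how the whole locus and the cyclin stood in the tumours.

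A gene-level count cannot say which product of Cdkn2a changed, because the transcripts share most of their length. In GENCODE M21 the gene lies on the minus strand of chr4:89274471-89294653 (GRCm38). It has 2 transcripts, whose starts are 12461 bases apart, each with its own first exon joined to the same exon 2 and to an exon 3 that differs in its last bases. They share 575 exonic bases, which is 67.5% of the 852 bases of the p16 transcript and 64.2% of the 895 bases of the p19Arf transcript. Only 277 and 320 bases, respectively, belong to 1 transcript alone. The junctions below show the last 30 coding bases of each first exon in lower case and the first 60 bases of the shared exon 2 in capitals. The first-exon bases lie at chr4:89281986-89282015 and chr4:89294334-89294363, and the exon 2 bases at chr4:89276926-89276985.
p16 junction: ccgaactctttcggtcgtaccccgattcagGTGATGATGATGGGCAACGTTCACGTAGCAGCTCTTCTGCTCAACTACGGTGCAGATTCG
p19Arf junction: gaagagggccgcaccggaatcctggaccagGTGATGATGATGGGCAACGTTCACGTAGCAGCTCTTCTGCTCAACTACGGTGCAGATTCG
The capitals are the same in both lines. The p16 reading frame starts a codon at base 1 of exon 2 and the p19Arf frame at base 3, so that 317 bases of exon 2 code for both proteins in different frames.

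**Figure D1:**
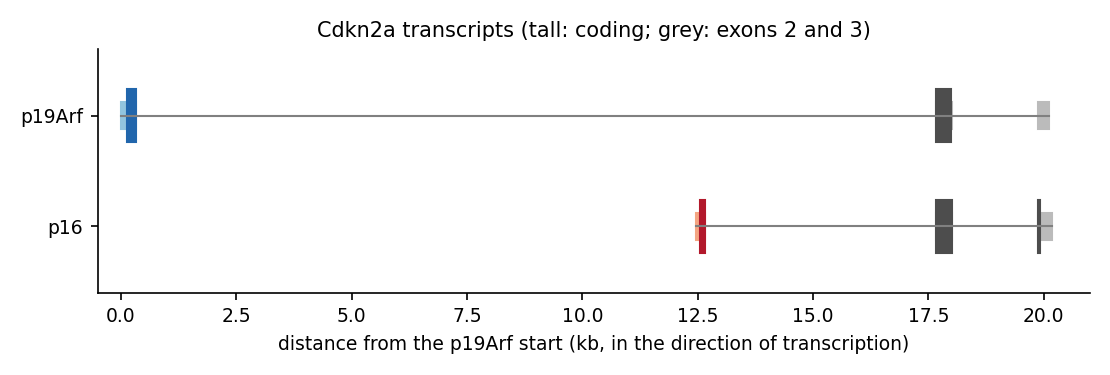
The 2 Cdkn2a transcripts drawn to scale against the distance from the p19Arf start in kb, with coding parts tall, first exons in colour and exons 2 and 3 in grey. The starts are 12461 bases apart, and 575 exonic bases are common to both transcripts.

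The starts of the locus also differ in sequence, which is why both windows are printed. RefSeq's promoter table (GRCm38.p6) gives 250 bases before and 50 bases after each start, with capitals marking the pairs CG. The p19Arf window is chr4:89294570-89294869 and the p16 window chr4:89282143-89282442, both on the minus strand.
p19Arf start: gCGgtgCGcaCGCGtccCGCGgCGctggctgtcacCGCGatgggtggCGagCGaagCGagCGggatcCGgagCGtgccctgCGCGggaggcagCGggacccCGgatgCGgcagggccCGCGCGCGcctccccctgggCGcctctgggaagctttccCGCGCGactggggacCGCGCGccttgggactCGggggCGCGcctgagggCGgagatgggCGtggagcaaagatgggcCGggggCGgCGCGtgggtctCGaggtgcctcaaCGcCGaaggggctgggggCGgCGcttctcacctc
p16 start: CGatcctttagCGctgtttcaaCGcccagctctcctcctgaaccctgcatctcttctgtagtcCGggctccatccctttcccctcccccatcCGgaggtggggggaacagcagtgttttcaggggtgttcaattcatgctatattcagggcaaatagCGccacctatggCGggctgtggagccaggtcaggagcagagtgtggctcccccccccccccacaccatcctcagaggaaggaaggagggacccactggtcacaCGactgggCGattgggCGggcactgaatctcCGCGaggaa
The p19Arf window holds 45 CG pairs, a number reached by 1.93% of 32851 promoter windows, and the p16 window holds 12, reached by 39.6%. Both contain the E2F motif TTTNNCGC, searched on both strands and itself holding a CG pair, which is in 5.17% of all windows. The Ccnd3 windows, at chr17:47504801-47505100 and chr17:47593217-47593516 on the plus strand, hold 15 and 28 CG pairs and no TTTNNCGC. No window of either gene held the E-box CACGTG or the cAMP response element TGACGTCA, which are in 7.15% and 1.79% of all windows. For comparison, the median was 15.5 CG pairs over 38 windows of 25 of the 41 genes listed as lower, 16.5 over 182 windows of 125 of the 182 listed as higher, and 7 over all windows. Which start was in use cannot be read from gene-level counts.

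Cdkn2a (ENSMUSG00000044303) was lower in all 3 H3.3K27M tumours than in any other. Its normalized counts were 1662, 2674 and 2040.3 in H3.3K27M replicates 1, 2 and 3. In the tumours without the mutation they were 3666, 4119 and 3121. The groups did not overlap, and the highest H3.3K27M tumour, replicate 2, lay 448 normalized counts under the lowest of the others, replicate 3. The means were 2125 ± 511 and 3636 ± 499.6 (SD, n = 3 each), so the H3.3K27M mean was 58.5% of the other. This is a 1.71-fold fall in the authors' deposited table, where its adjusted p is 0.0176. No tumour of either group, all of them p53-deficient, held under 1662 normalized counts of the locus. In bulk tissue, fewer cells that express a gene and less RNA per cell cannot be told apart.

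Ccnd3 (ENSMUSG00000034165, plus strand of chr17:47505051-47599691, GRCm38) was lower in the same tumours, by less. Its normalized counts were 4422, 5219.6 and 4237 in H3.3K27M replicates 1, 2 and 3. In the others they were 6241, 6229.9 and 7084. Again the groups did not overlap, with a gap of 1010.3 normalized counts between the nearest tumours, and again replicate 2 was the highest of the H3.3K27M tumours. The means were 4626 ± 522 and 6518 ± 489.6 (SD, n = 3 each), and the H3.3K27M mean was 71.0% of the other. In the authors' deposited table the fall is 1.41-fold and the adjusted p 0.043. Of the 50-base stretches of Ccnd3 coding transcripts, 143 of 3124 (4.58%) also occur in the pseudogene Ccnd3-ps, and the last 361 bases of the gene overlap Bysl on the opposite strand, so a small part of its reads could belong elsewhere if counting did not use strand. None of the 1120 stretches of Cdkn2a occurs in a transcript of another gene.

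**Figure D2:**
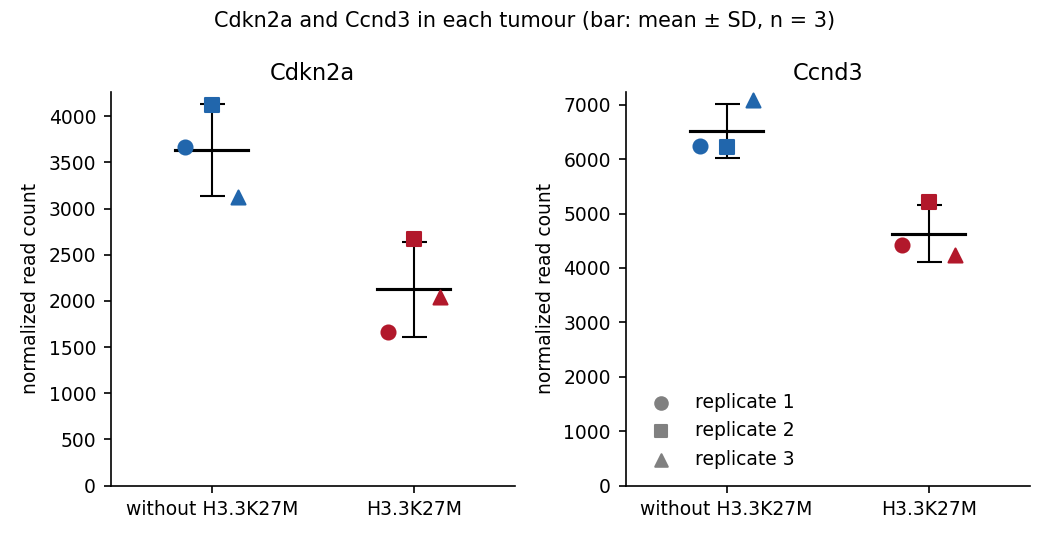
Normalized read counts of Cdkn2a (left) and Ccnd3 (right) in each tumour, with symbols for replicates and black bars for the mean ± SD of 3 tumours per group. Cdkn2a runs from 1662 to 2674 with H3.3K27M and from 3121 to 4119 without, and Ccnd3 from 4237 to 5219.6 with it and from 6229.9 to 7084 without.

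The spread between tumours of a group was larger than counting error for both genes. If 1 step of the deposited values is 1 read, the 12 values rest on 1763 to 6495 reads, which gives a counting error of 1.24% to 2.38% of each value. With H3.3K27M the SD of Cdkn2a was 24.1% of its mean and without it 13.7%, while that of Ccnd3 was 11.3% and 7.51%. Among H3.3K27M tumours Cdkn2a differed 1.61-fold between the highest and the lowest, about as much as the 1.71-fold fall between the group means.

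Both calls have to be read against how the table was made. It lists the genes under an adjusted p of 0.05 among 16365 tests, of which 1.36% were called in all and 0.251% as lower. Cdkn2a ranked 135 and Ccnd3 211 of 223 by adjusted p. Among the 41 lower genes the fall of Cdkn2a was the rank 18 largest and that of Ccnd3 the smallest, against a median fall of 1.67-fold. Of all 223 listed genes Ccnd3 also had the smallest change in either direction. It was among the most abundant, at rank 7 by mean normalized count, and Cdkn2a was at rank 21. The groups did not overlap in 40 lower genes, which is 17.9% of the table, and in 99.6% of it in either direction, so that the separation of both genes is shared by nearly all listed genes.

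**Figure D3:**
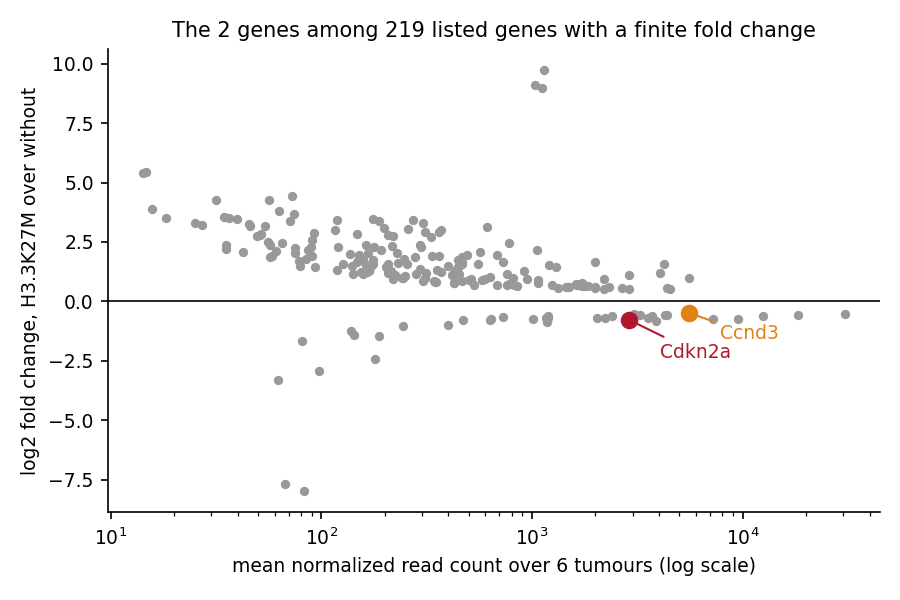
The log2 fold change of the authors' deposited table against the mean normalized read count over 6 tumours (log scale), for the 219 listed genes with a finite fold change. Cdkn2a and Ccnd3 lie among abundant genes with small falls, at -0.77 and -0.49.

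On log2(normalized count + 1), limma over the 223 listed genes gave a log2 difference of -0.79 ± 0.24 for Cdkn2a (SE, adjusted p = 0.0167) and of -0.50 ± 0.18 for Ccnd3 (SE, adjusted p = 0.0286). Limma called 100% of these genes, and 18.4% of them as lower, since they had been selected on the same tumours, so this describes the gap between libraries and is not further evidence. An exact two-sided permutation test over tumours gave p = 0.1 for each gene, the smallest that 3 against 3 allows. The limma call on Cdkn2a was lost when H3.3K27M replicate 1 was left out (adjusted p = 0.0559) or replicate 2 of the other group (adjusted p = 0.0549). The call on Ccnd3 was lost in 5 of 6 such fits, with adjusted p from 0.0539 to 0.0918, and kept without H3.3K27M replicate 2 (adjusted p = 0.0241). As ratios of group means, leaving out each tumour gave falls of 1.54-fold to 1.96-fold for Cdkn2a and of 1.35-fold to 1.51-fold for Ccnd3.

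The larger fall of the inhibitor locus was not distinguishable from that of the cyclin. Within each tumour the ratio of the Cdkn2a to the Ccnd3 normalized count, which does not depend on how libraries are scaled, was 0.376, 0.512 and 0.482 in H3.3K27M replicates 1, 2 and 3. In the others it was 0.587, 0.661 and 0.441. The groups overlapped, since replicate 3 without H3.3K27M, which held the least Cdkn2a and the most Ccnd3 of its group, lay under replicates 2 and 3 with the mutation. The mean log2 ratio was -1.14 ± 0.24 against -0.85 ± 0.30 (SD, n = 3 each), a difference of -0.29 (exact two-sided permutation test, p = 0.3). The 9 differences between single tumours of the groups ran from -0.81 to 0.22, with 7 of them below 0. This range is the spread between single tumours, each used repeatedly, and is not an interval for the mean difference. Whether the falls differ in size was not settled by 3 tumours per group.

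**Figure D4:**
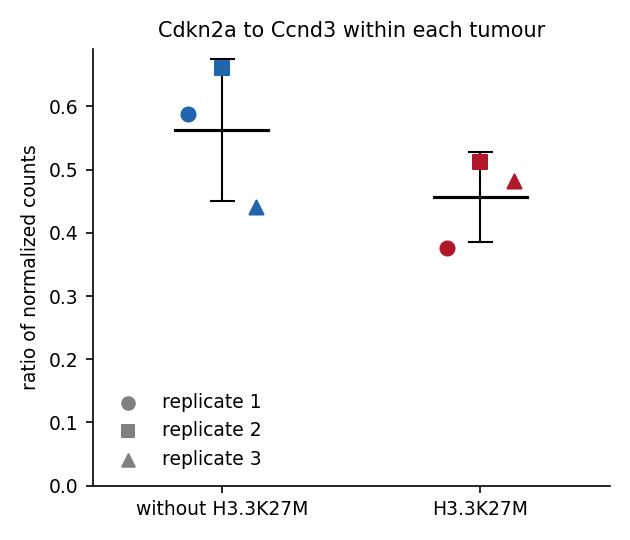
The ratio of Cdkn2a to Ccnd3 normalized read counts within each tumour, with black bars for the mean ± SD of 3 tumours per group. The H3.3K27M tumours sit between 0.376 and 0.512 and the others between 0.441 and 0.661, so the groups overlap.

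Per kilobase of the longest coding transcript (895 bases for Cdkn2a, 2113 for Ccnd3), Cdkn2a had the higher group mean without H3.3K27M, and with it the group means were closer. Without H3.3K27M, Cdkn2a was at 4062 ± 558 and Ccnd3 at 3085 ± 232 normalized counts per kilobase (SD, n = 3 each). With H3.3K27M they were at 2375 ± 571 and 2189 ± 247. Dividing by length changes the ratio of the genes by the same factor in every tumour. The groups therefore overlap in it as before (exact two-sided permutation test, p = 0.3), and the closer means are not a separate result. These values depend on the transcript taken as the length, since 21 transcripts of Ccnd3 are annotated. For Cdkn2a the length is that of the p19Arf transcript, which leaves out 277 bases that only the p16 transcript holds. Counting those bases in would lower the Cdkn2a values in both groups, so how the genes compare rests on this choice.

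Apart from Cdkn2a and Ccnd3 themselves, no gene of the G1 control lists is in the table. The 9 lists hold 118 genes, of which 2 (1.69%) are listed, against 1.36% of all 16365 tests. They are Cdkn2a among 7 CDK inhibitors and Ccnd3 among 5 genes for D-type cyclins and their kinases. Both are the members, which were known to be listed when the lists were chosen, so this share is not a result about the lists. Of the other lists, 0 of 13 RB family and E2F genes, 0 of 6 genes for cyclins E and A with CDK2 and 0 of 12 mitosis markers are in the table. Of the list of S phase genes and E2F targets, which includes the mitotic cyclin gene Ccnb1, 0 of 16 are in it. The same holds for 0 of 13 genes of the p19Arf and p53 axis, 0 of 27 Polycomb genes and related regulators of the locus, and 0 of 19 genes of mitogen signalling. The nearest neighbours in the genome are not listed either. These are Cdkn2b, which encodes the CDK inhibitor p15 and lies 11645 bases from Cdkn2a between the nearest ends of the genes, the noncoding Gm12606 on its other side, and Taf8, Bysl and Med20 around Ccnd3. A gene that is not listed stayed at or above the threshold or was not tested, so its level is unknown here and no absence of change can be read from it.

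The genes with the most similar profiles were other abundant genes that fell. Likeness was measured over the 6 tumours as the root mean square difference of log2 levels, each gene centred on its mean. Closest to Cdkn2a were Gng3, a G protein gamma subunit (0.18), Gm2a, the activator of ganglioside breakdown (0.18), the growth factor midkine, Mdk (0.19), Oraov1 (0.19), and Pdlim4, which binds the actin cytoskeleton (0.20). Their falls in the authors' deposited table ranged from 1.49-fold for Oraov1 to 1.68-fold for Mdk. Closest to Ccnd3 were Cyb5r3, a cytochrome b5 reductase (0.08), Bcas1, a gene of the oligodendrocyte lineage (0.10), the myelin protein gene Pllp (0.11), the copine Cpne8 (0.12) and Gng3 (0.13), with falls of 1.43-fold to 1.63-fold in that table. The difference between Cdkn2a and Ccnd3 themselves was 0.27, which made Ccnd3 rank 18 for Cdkn2a and Cdkn2a rank 26 for Ccnd3. The median over all other listed genes was 1.19 from Cdkn2a and 1.04 from Ccnd3. As the table holds only genes that separate the same groups, small differences follow in part from that selection.

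Some markers of other cell types are in the table as well, where every gene differs between the groups by selection. Their counts stand against a table that holds 1.36% of all tests, of which 81.6% are higher in H3.3K27M tumours and 41 genes, 0.251% of all tests, are lower. Of 20 neuron markers, 7 are in the table and all 7 were higher in H3.3K27M tumours. In the authors' deposited table the kinase subunit gene Camk2a was 8.01-fold, the complexin gene Cplx1 4.45-fold, and Gad2 and Slc32a1, genes of GABA synthesis and transport, 10.6-fold and 8.47-fold higher. The summed normalized counts of the 7 markers were 6807, 2732 and 6743 in H3.3K27M replicates 1, 2 and 3 and 476 to 1300.2 in the others, with no value at 0. Replicate 2 was thus the H3.3K27M tumour with the lowest neuron sum and the highest Cdkn2a and Ccnd3. Without it, the falls were 1.96-fold for Cdkn2a and 1.51-fold for Ccnd3. The other group was not ordered this way for Cdkn2a. There replicate 3 had the lowest neuron sum, 476, with the lowest Cdkn2a, 3121, and the highest Ccnd3, 7084. A relation of the neuron sum to either gene was not tested.

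Of 10 astrocyte markers, Aqp4 and Aldh1l1 were higher and summed to 698 to 1130.3 with H3.3K27M and 261 to 416 without. Of 11 mural and fibroblast markers, Dcn, Lum and Lox were higher, at 1116 to 1764 against 279.8 to 556, and of 12 mature oligodendrocyte markers Ermn was higher, at 80.6 to 217 against 18.5 to 31.2. The lineage was not uniform, since the more abundant myelin gene Pllp, on no list and named here after its values were seen, was lower, at 3413 ± 188 against 5146 ± 643 (SD, n = 3 each). The 3 listed genes of the oligodendrocyte precursor list went the other way. Gliomas driven by PDGF resemble this lineage, but the list was chosen with earlier results of these data known. Of 12, Bcas1, Dll3 and Kcnip3 are listed, all lower, and summed to 15558, 20170.05 and 17101 in H3.3K27M replicates 1, 2 and 3 and 24700.1 to 29655 in the others. Bcas1, also expressed as these cells differentiate, is the largest part of that sum, at 9925 ± 1333 against 15092 ± 858 (SD, n = 3 each). Kcnip3 is next, at 7122 ± 917 against 11906 ± 1847, and Dll3 adds little, at 563 ± 98 against 901 ± 111 (SD, n = 3 each). The falls of Bcas1, Dll3 and Kcnip3, of 1.52-fold, 1.6-fold and 1.67-fold, in the authors' deposited table lie between those of Ccnd3 and Cdkn2a. The median fall of the 41 lower genes, 1.67-fold, lies there too, as Ccnd3 had the smallest fall and Cdkn2a the rank 18 largest. This interval therefore does not set these markers apart from other lower genes. The precursor markers Pdgfra, Cspg4, Olig1, Olig2 and Sox10 are not in the table, so their levels are unknown here. A fall of the precursor lineage can therefore not be read from Bcas1, Dll3 and Kcnip3. None of the 13 microglia and macrophage, 9 lymphocyte, 8 endothelial or 7 ependymal and choroid plexus markers is in the table. The part of cell composition in the falls of Cdkn2a and Ccnd3 was not tested.

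**Figure D5:**
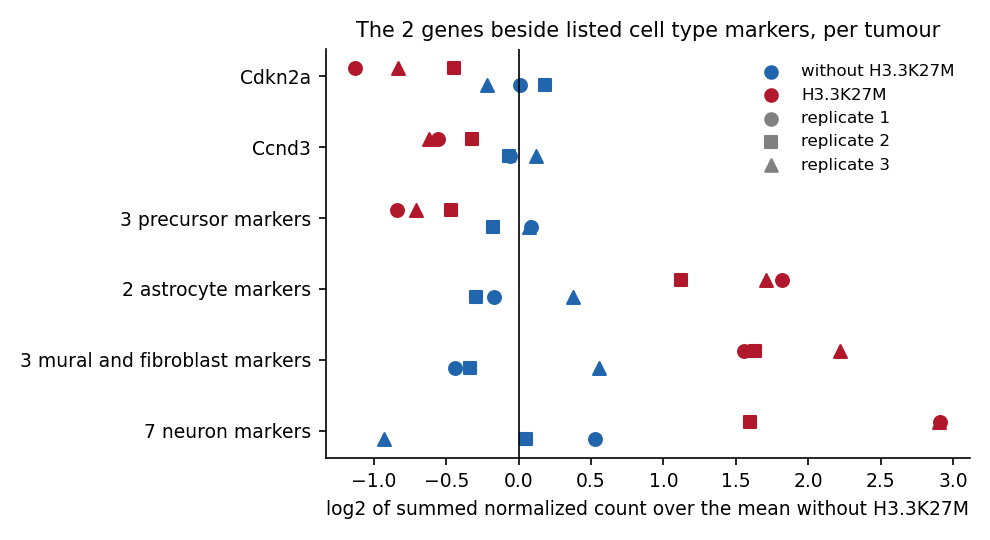
The log2 of each tumour's normalized count of Cdkn2a or Ccnd3, or of its summed count of listed markers, over the mean of the tumours without H3.3K27M. H3.3K27M replicate 2 has the lowest neuron sum of its group, 2732, and the highest Cdkn2a, 2674. Without H3.3K27M, replicate 3 has the lowest neuron sum, 476, and the lowest Cdkn2a, 3121.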

How the data were processed

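RNA of 6 snap-frozen brainstem gliomas was sequenced with Illumina libraries by a service provider, per the labels' protocols. Tumours are independent per the design text. Groups were taken from the sample descriptions, and replicates were numbered in sample order. The aligner, the counter and the use of strand are not given in the sources used. DESeq and the builds mm9 and NCBIM37 are named in the submitters' processing notes.

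The authors deposited 1 table with a signal per tumour, the normalized counts, group means, their ratio (fold change) and its log2, and p-values before and after adjustment. The deposited adjusted p-values all follow the Benjamini-Hochberg formula for 16365 tests, and the largest is 0.0495. Columns were matched to tumours by title, and 0 columns were left over. All values were whole multiples of 1 step per tumour, within 0.01, with implied size factors of 0.917 to 1.06. The reads so implied for the listed genes sum to 215758 to 277881 per library. Too few low values are listed to settle that a step is a read, so no count test was run, and total depth is unknown.

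Limma 3.58.1 (R 4.3.3) was run on log2(normalized count + 1) over all 223 genes with Benjamini-Hochberg adjustment, after a check on simulated data. Single values were compared by exact two-sided permutation tests over tumours. Alternatives were other pseudocounts, a filter on low values, other scalings, an intensity trend and leaving out each tumour. Named are the members, the 5 most similar profiles for each, members of the pathway lists, up to 4 listed markers per cell type by adjusted p, and direct neighbours. The members and lists were chosen with earlier results of these data known. Transcripts come from GENCODE M21 and promoters from RefSeq, both on GRCm38, so their coordinates are not those of the authors' build.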

Additional observations from a re-analysis of the deposited data

How the results depend on the processing

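In every alternative run, Cdkn2a and Ccnd3 stayed lower in H3.3K27M tumours. Except under a change of scaling, this direction was fixed in advance, because the groups did not overlap in either gene. When each tumour was left out in turn, the log2 difference ranged from -0.97 to -0.63 for Cdkn2a (limma adjusted p from 0.0113 to 0.0559) and from -0.59 to -0.44 for Ccnd3 (limma adjusted p from 0.0241 to 0.0918). The calls that were lost this way rest on fewer tumours. The difference of the log2 ratio of Cdkn2a to Ccnd3 ranged from -0.46 to -0.16 (exact permutation p from 0.1 to 0.6). With 1 tumour left out, 0.1 is the smallest p this test allows, so no such run could reach 0.05. It was reached without replicate 3 of the tumours lacking H3.3K27M, where the ratios of the groups no longer overlapped. In these fits 193 to 220 of 223 genes were called by limma. A rescaling to the median ratio of the listed genes moved the median log2 difference of the table from 1.33 to 0.14, took Cdkn2a to -1.98 and Ccnd3 to -1.69, and left 98 calls, 48 higher and 50 lower, against 182 and 41. By construction it treats a table that is mostly higher as balanced. As it applies the same factor to all genes of a tumour, the place of both genes under the median of 0.14 was fixed by the method. With the size factors undone, an alternative chosen after seeing the data, the differences were -0.73 and -0.43. The deposited scaling itself could not be checked on genes outside the table. No paired analysis was possible because the labels give the tumours no shared replicate numbers.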
